A study of Mus musculus with 2 samples.

Results

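The genes described here encode the CD3 and zeta chains of the T-cell receptor (TCR) and the proteins that carry or restrain its signal inside the cell. They were chosen by name from a list of 38 symbols, with no measured value in the rule. Earlier results of these data were known when the list was chosen. All 38 were found among the 48321 genes of the count tables. RNA-seq was performed on sorted mature thymocytes, T cells at their last stage in the thymus, of C57Bl/6 mice of the genotype MHC-II0:CD8ab Tg, in 2 libraries named replicate 1 and replicate 2. The mice lack MHC class II molecules through a deficiency in the I-A beta chain (I-Ab-/-), and both endogenous Cd8 genes are disrupted (Cd8 Δab/Δab), with human CD2 cDNA in place of *Cd8a* coding sequence. Their CD8α and CD8β chains come instead from cDNAs in the Rosa26 locus (Rosa26 8a/8b), which are switched on when Cre, driven by *Cd4* regulatory sequences (Cd4-Cre), removes a stop cassette. The study describes a lower level of the transgenic than of the endogenous CD8α chain, so that the mice differ from normal in the amount of CD8 as well as in its control. The age of the mice is not given in the sources used here, and the wild-type libraries that the study used belong to another series and were not analysed here.

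The sample titles call the cells CD4-CD8-, whereas the cell type label calls them CD8+. *Cd4* had 0.717 CPM (count per 1000000 counts on genes) in replicate 1 and 1.66 CPM in replicate 2, while *Cd8a* had 158 and 171 CPM and *Cd8b1* had 775 and 786 CPM. Messages from the transgenes and from what is left of the disrupted genes cannot be told apart in these counts. The libraries held 16732644 and 16245849 counts on genes, so that 3 counts, the smallest level taken as detectable, equal 0.179 and 0.185 CPM. The labels do not say whether the libraries came from separate mice. *Xist*, expressed from the inactive X chromosome of females, had 2.03 CPM in replicate 1 and 1555 CPM in replicate 2, and the Y-linked *Ddx3y* had 146 and 0 CPM. Replicate 1 thus had the values of a male source and replicate 2 those of a female source, so they did not come from the same mouse. Whether either was a pool of mice is not given. Any test between the libraries therefore describes these samples, with sex and library moving together, and no comparison of conditions is possible with 1 group.

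The TCR recognises a peptide on an MHC molecule but has almost no tail inside the cell, and the signal is passed by the CD3γ, CD3δ, CD3ε and ζ chains. Their cytoplasmic tails hold immunoreceptor tyrosine-based activation motifs (ITAMs), in which a pair of tyrosines is phosphorylated by LCK, a kinase bound to the CD4 or CD8 co-receptor, and then binds the kinase ZAP-70. ZAP-70 phosphorylates the scaffold LAT and the adaptor SLP-76 (*Lcp2*), on which phospholipase Cγ1, GRB2-family adaptors and exchange factors assemble, and phosphatases, ubiquitin-linked regulators and diacylglycerol kinases limit the response. In thymocytes the strength of this signal influences survival and lineage choice.

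The ITAMs carry the tyrosines at which signalling starts, so their coding stretches are shown. They were located in the GENCODE M21 transcripts of GRCm38 by translating each coding sequence and searching for tyrosine, any pair of residues, leucine or isoleucine, then 6 to 8 residues, and the same pattern again. Capitals mark the codons of both tyrosines, and each stretch is read 5′ to 3′ on the coding strand and crosses an intron, so that its genomic span is longer than the sequence. The spans are chr9:44970735-44971268 (minus strand) for *Cd3g*, chr9:44986095-44986311 (plus strand) for *Cd3d* and chr9:44999549-45000440 (minus strand) for *Cd3e*. The spans for *Cd247*, which encodes the ζ chain, are chr1:165856451-165857454, chr1:165858473-165859260 and chr1:165859819-165861042 on the plus strand.
Cd3g: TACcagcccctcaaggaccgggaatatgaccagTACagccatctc
Cd3d: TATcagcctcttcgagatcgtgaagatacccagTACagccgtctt
Cd3e: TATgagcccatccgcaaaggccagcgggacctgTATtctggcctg
Cd247, ITAM 1: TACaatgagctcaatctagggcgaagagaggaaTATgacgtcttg
Cd247, ITAM 2: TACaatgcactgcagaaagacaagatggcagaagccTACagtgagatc
Cd247, ITAM 3: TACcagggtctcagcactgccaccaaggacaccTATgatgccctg

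*Cd3g*, *Cd3d* and *Cd3e* each held 1 such stretch of 45 bases, and *Cd247* held 3, of 45, 48 and 45 bases. In *Cd247* the first pair was present in 6 annotated coding transcripts and the last in 1, the transcript of 164 residues. The counts are per gene and do not tell these transcripts apart.

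All 4 chains were expressed at high levels in both libraries. *Cd3g* had 621 CPM in replicate 1 and 558 CPM in replicate 2, with a mean of 589 ± 44.3 CPM (SD, n = 2). *Cd3e* had 408 and 368 CPM, with a mean of 388 ± 28.1 CPM (SD, n = 2). Replicate 1 was the higher library for both genes. *Cd3d*, whose product pairs with CD3ε as CD3γ does, had 415 and 406 CPM, and *Cd247* had 209.9 and 211 CPM, so that for these genes the libraries lay close together. In CPM per kb of annotated exon, the scale used below to compare genes of different length, the mean levels were 226 for *Cd3d*, 180.3 for *Cd3g*, 95.1 for *Cd3e* and 39.5 for *Cd247*. The order of *Cd3d* and *Cd3g* depended on the length used: the ratio of *Cd3g* to *Cd3d* was 0.797 with all annotated exons, 0.914 with the longest transcript, 2.27 with the longest coding transcript of the basic set and 1.37 with the coding length. That of *Cd3d* to *Cd3e* was 2.38, 1.67, 0.957 and 1.16 over the same lengths. The level of *Cd3g* per kb was above that of *Cd3e*, and all of the CD3 genes were above *Cd247*, under each of the 4 lengths. *Cd3g* exceeded *Cd3e* per kb by 1.53 to 2.17-fold over these lengths, and *Cd3e* exceeded *Cd247* by 2.01 to 3.73-fold.

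**Figure D1:**
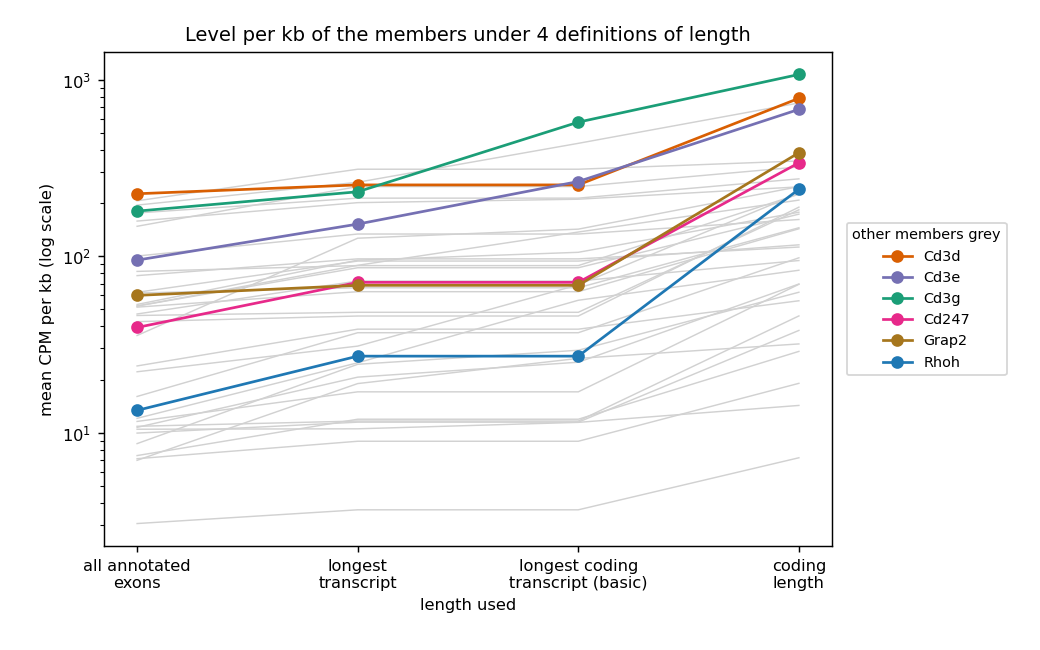
The mean CPM per kb of each of the 38 genes (y axis, log scale) is plotted for 4 definitions of length (x axis), with the CD3 and zeta genes, *Grap2* and *Rhoh* in colour and the other members in grey. The lines of *Cd3g* and *Cd3d* cross, from 180.3 and 226 CPM per kb with all exons to 1074 and 787 with the coding length, while *Cd247* stays below the CD3 genes throughout.

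The count for *Cd247* is the least certain of the 4. Its annotated exons overlap those of *Pou2f1*, on the opposite strand, by 3007 bases, and 55.9% of the 50-base windows in its transcripts also occur in transcripts of other genes, compared with 0.284% for *Cd3d*, 2.16% for *Cd3e* and 0% for *Cd3g*. *Pou2f1* had 1300 and 1265 counts. The library kit is not described as strand-specific in the labels, and reads from such a pair of genes cannot be told apart without strand. How far reads of *Pou2f1* entered or left the *Cd247* count was not tested. None of the 4 lengths used above was corrected for this overlap. Whether *Cd247* would stay below the CD3 genes after such a correction was not tested.

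*Cd3g* (chr9:44969572-44980431, minus strand), *Cd3d* (chr9:44981786-44987339, plus strand) and *Cd3e* (chr9:44998740-45009627, minus strand) lie side by side within 40056 bases. The annotated starts of *Cd3g* and *Cd3d* are 1355 bases apart and point away from each other. To set these neighbours side by side, the 250 bases before each RefSeq start (GRCm38.p6) are shown on the strand of the gene. The letters AGGAAG of the ETS motif, read on either strand, are in capitals. The windows span chr9:44980432-44980681 for *Cd3g*, chr9:44981536-44981785 for *Cd3d* and chr9:45009612-45009861 for *Cd3e*, where the RefSeq start lies inside the gene span given by GENCODE.
Cd3g: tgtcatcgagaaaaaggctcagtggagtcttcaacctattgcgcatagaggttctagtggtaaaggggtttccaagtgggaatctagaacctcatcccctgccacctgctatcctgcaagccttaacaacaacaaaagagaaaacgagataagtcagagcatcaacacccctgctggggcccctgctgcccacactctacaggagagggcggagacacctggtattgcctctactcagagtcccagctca
Cd3d: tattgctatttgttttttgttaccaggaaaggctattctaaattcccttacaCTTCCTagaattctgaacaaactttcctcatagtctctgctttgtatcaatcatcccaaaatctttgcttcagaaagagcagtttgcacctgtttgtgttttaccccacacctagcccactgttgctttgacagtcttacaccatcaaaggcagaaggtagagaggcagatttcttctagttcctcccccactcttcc
Cd3e: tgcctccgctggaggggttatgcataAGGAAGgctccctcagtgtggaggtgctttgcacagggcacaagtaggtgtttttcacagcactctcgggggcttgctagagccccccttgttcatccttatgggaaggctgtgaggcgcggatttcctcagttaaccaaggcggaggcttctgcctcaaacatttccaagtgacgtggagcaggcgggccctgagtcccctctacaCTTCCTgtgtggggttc

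These windows differed in the letters they hold. AGGAAG occurred 0 times in the window of *Cd3g*, 1 time in that of *Cd3d* and 2 times in that of *Cd3e*. The E-box letters CANCTG occurred 2, 1 and 0 times, and the RUNX letters TGTGGT, on either strand, in none of the 3 windows. Of 32851 windows of the same length in the RefSeq table, 29.5% held AGGAAG, 44.8% held CANCTG and 14.1% held TGTGGT. Both strands were searched, and overlaps between motifs were kept. The table has 43 windows for 29 of the 38 genes, of which 20 (46.5%) held AGGAAG, 24 (55.8%) held CANCTG and 4 (9.3%) held TGTGGT. These matches are descriptions of letters and not of bound sites.

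The 38 genes together held 9801 CPM in replicate 1 and 9959 CPM in replicate 2, with a mean of 9880 ± 112 CPM (SD, n = 2), which is 0.98% and 0.996% of the counts on genes. Their median level was 221 and 219 CPM, while that of the 15949 genes with at least 10 counts over both libraries was 13.3 and 14.2 CPM. Per kb, 37 of the 38 lay at or above the median of all genes with at least 10 counts and a known length, and 23 lay in the upper 10%. *Vav3*, which encodes an exchange factor for small GTPases, was the exception, at the percentile of 43.8 with 3.05 CPM per kb. In these bulk libraries a lower level can mean fewer cells that express a gene or less RNA in each cell, and the 2 cannot be told apart.

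**Figure D2:**
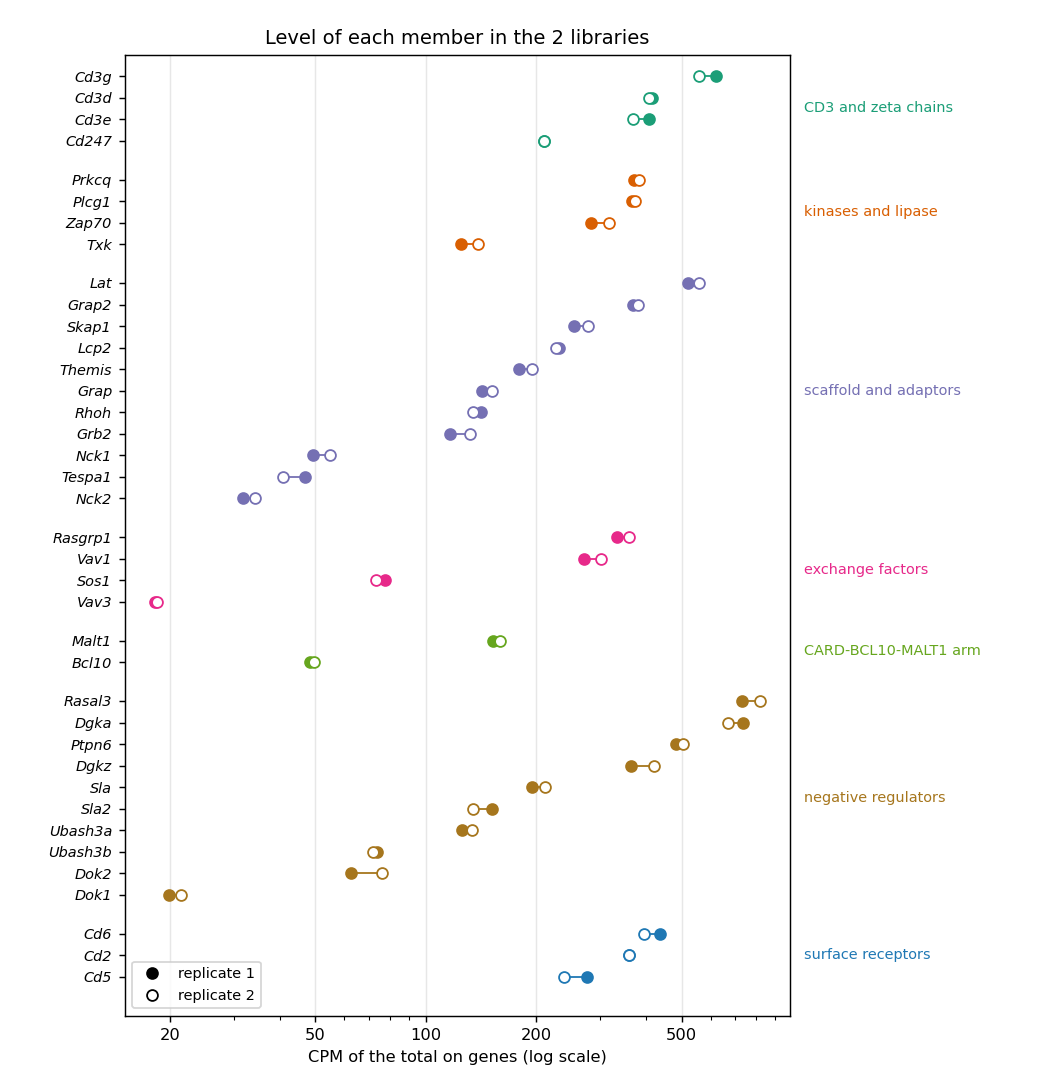
The CPM of each of the 38 genes (x axis, log scale) is plotted for replicate 1 (filled) and replicate 2 (open), with the genes grouped by role. The levels ran from a mean of 18.3 CPM for *Vav3* to 775 CPM for *Rasal3*, and the symbols of the same gene lie close together in comparison with that range.

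Among the kinases and the lipase, *Zap70* (chr1:36761798-36782818) had 284 CPM in replicate 1 and 317 CPM in replicate 2, with a mean of 300.1 ± 23.6 CPM (SD, n = 2). Its product binds the doubly phosphorylated ITAM. *Txk*, a TEC-family kinase, had 125 and 139 CPM. Replicate 2 was the higher library for both kinases. *Prkcq*, which encodes protein kinase Cθ, had 372 and 383 CPM, and *Plcg1*, which encodes the phospholipase that makes inositol trisphosphate and diacylglycerol, had 367 and 373 CPM. For *Prkcq* and *Plcg1* the difference between the libraries did not pass the test described below.

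Of the scaffold and adaptor genes, *Lat* (chr7:126363824-126369570) had 521 and 558 CPM, and *Lcp2*, the gene of SLP-76, had 231 and 228 CPM. LAT is the membrane scaffold and SLP-76 is brought to it by GADS, the product of *Grap2*, which had 368 and 381 CPM. The related adaptor genes *Grap* and *Grb2* had 143 and 152 CPM and 116 and 132 CPM. Per kb of annotated exon the mean was 82.1 for *Grap*, 60.0 for *Grap2* and 42.6 for *Grb2*, but by coding length *Grap2* came first, with 387 against 225 for *Grap* and 189.9 for *Grb2*. *Nck1* and *Nck2*, whose products link the receptor to actin, had 49.3 and 54.8 CPM and 31.8 and 34.2 CPM. They lay near the lower end of the adaptors per kb, together with *Tespa1*, a gene needed for positive selection, which had 46.8 and 40.9 CPM. *Skap1*, which couples the receptor to integrins, had 254 and 277 CPM. *Themis*, a thymocyte gene required for positive selection, had 179 and 195 CPM. *Rhoh*, which encodes a GTPase-deficient small G protein that supports ZAP-70 recruitment, had 142 and 135 CPM. Of these 11 genes, *Lat*, *Grb2*, *Skap1* and *Themis* passed the test described below as higher in replicate 2, and the other 7 did not pass.

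Among the exchange factors, *Vav1* had 271 and 301 CPM, while *Vav3* had 18.2 and 18.4 CPM. The RAS exchange factor genes *Rasgrp1* and *Sos1* had 333 and 360.3 CPM and 77.4 and 73.3 CPM. *Rasgrp1*, whose product is recruited by diacylglycerol, was thus present at 61.9 CPM per kb and *Sos1*, whose product is recruited by GRB2, at 7.11 CPM per kb. In the arm that leads to NF-κB, *Bcl10* had 48.2 and 49.6 CPM and the paracaspase gene *Malt1* had 153 and 159 CPM. Neither differed between the libraries beyond counting error (adjusted p = 0.799 and 0.371, two-sided exact binomial test).

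The genes whose products restrain the signal summed to 2945 CPM in replicate 1 and 3062 CPM in replicate 2. *Rasal3*, a RAS GTPase-activating protein gene of haematopoietic cells, had 731 CPM (95% Wilson interval 718 to 744) in replicate 1 and 820 CPM (806 to 834) in replicate 2. *Dgka* and *Dgkz*, whose products convert diacylglycerol to phosphatidic acid, had 738 and 671 CPM and 364 and 419 CPM. The paired diacylglycerol kinase genes thus went in opposite directions between the libraries. *Ptpn6*, the gene of the phosphatase SHP-1, had 483 and 503 CPM. The SRC-like adaptor genes *Sla* and *Sla2*, which reduce the amount of receptor on the cell, had 195 and 211 CPM and 152 and 134 CPM, again in opposite directions. *Ubash3a* and *Ubash3b*, the genes of the STS proteins that act on ZAP-70, had 126 and 134 CPM and 73.6 and 72.0 CPM. *Dok1* and *Dok2*, adaptors that recruit RAS GTPase-activating protein, had 19.9 and 21.4 CPM and 62.7 and 75.9 CPM. Of these 10 genes, *Sla2* and *Dgka* passed the test described below as higher in replicate 1, *Sla*, *Dgkz*, *Rasal3* and *Dok2* passed as higher in replicate 2, and the other 4 did not pass.

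The surface receptor gene *Cd2* had 359 CPM in both libraries. *Cd5* and *Cd6*, whose products set the responsiveness of thymocytes, had 276 and 239 CPM and 437 and 395 CPM. These related genes lie near each other on the minus strand of chromosome 19, at chr19:10717116-10739002 and chr19:10789341-10830058, and both were higher in replicate 1. Per kb of annotated exon both had a mean of 52.2, while the ratio of *Cd5* to *Cd6* was 0.968 with the longest transcript, 0.627 with the longest coding transcript of the basic set and 0.831 with the coding length.

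Ordered by CPM per kb of annotated exon, *Cd3d* came first at 226, followed by *Cd2* at 206, *Lat* at 195, *Cd3g* at 180.3, *Ptpn6* at 176, *Rasal3* at 158, *Dgka* at 148, *Zap70* at 100.3 and *Cd3e* at 95.1. The ranges of the libraries overlapped for 19 of the 37 neighbouring pairs in the order, among them *Lat* and *Cd3g*, *Cd3g* and *Ptpn6*, *Rasal3* and *Dgka*, and *Zap70* and *Cd3e*, so these neighbours did not differ beyond their spread. The lower end held *Nck2* at 7.41, *Sos1* at 7.11, *Tespa1* at 6.96 and *Vav3* at 3.05, and the first 3 of these also overlapped. With the coding length in place of all exons, 11 genes moved by more than 5 ranks. *Cd247* went from rank 22 to 7, *Rhoh* from 27 to 12, *Grap2* from 14 to 5 and *Zap70* from 8 to 20. *Cd3g*, *Cd3d*, *Lat* and *Cd3e* then held the first 4 ranks. *Vav3* was last under all 4 lengths.

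As a scale for these levels, the protein-coding genes nearest to *Lat* in both libraries per kb were *Rpl7*, *Npm1* and *Arl6ip5*, at 189, 186 and 188 CPM per kb in replicate 1. Those nearest to *Zap70* were *Calm2*, *Acap1* and the kinase gene *Fyn*, at 95.8, 94.8 and 95.1, and those nearest to *Cd3e* were *Srgn*, *Cxcr4* and *Rhog*, at 95.01, 98.5 and 95.4. The likeness is the summed absolute log2 difference over the 2 libraries and speaks only of the level counted here. Windows shared with other genes were not measured for these nearest genes, except *Fyn*. How far shared sequence changed their counts is therefore unknown, and the true RNA levels may be less alike.

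Many of these genes have relatives that serve other receptors or other cells, and in 15 of the 16 families compared, each with at least 1 relative outside the 38, the highest gene per kb was a member. *Zap70* had 94.7 and 106 CPM per kb, while its relative *Syk*, the ITAM kinase of B and myeloid cells, had only 12 and 13 counts, a ratio of 1238 ± 1.49 (SD, n = 2). *Lcp2* had 3871 and 3697 counts and its B-cell counterpart *Blnk* had 3 and 2, at or under the floor. *Lat* exceeded *Lat2*, the scaffold of B and mast cells, by 88.7 ± 24.3-fold per kb, *Plcg1* exceeded *Plcg2* by 22.7 ± 1.62-fold, and *Themis* exceeded *Themis2*, which had 11 and 8 counts, by 88.2 ± 23.1-fold. The members were therefore the more abundant genes in each of these pairs, whichever library was taken. *Vav1* exceeded *Vav3* by 25.5 ± 1.71-fold and *Vav2* by 52.3 ± 4.19-fold. *Skap1* exceeded *Skap2* by 36.99 ± 1.13-fold and *Ptpn6* exceeded *Ptpn11*, the gene of SHP-2, by 10.8 ± 0.942-fold. *Sos1* was closer to *Sos2*, at a ratio of 1.72 ± 0.16. *Dgka* exceeded *Dgkd* by 2.5 ± 0.324-fold and *Dgke* by 49.97 ± 0.185-fold, while *Dgkz* was at 1.05 ± 0.0388 of *Dgkd*. *Rasal3* exceeded *Rasal1* by 43.4 ± 10.2-fold. *Dok3*, with 8 and 27 counts, lay below both *Dok1* and *Dok2*. *Cd247* exceeded *Fcer1g*, whose product replaces the ζ chain in some receptors, by 3.84 ± 0.369-fold with all exons and 10.5-fold with the coding length.

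In the other family *Rhoh* reached 0.366 ± 0.00405 of the level of *Rhoa* per kb. *Prkcq* and *Prkch* did not differ beyond the spread of the libraries, with ratios of 0.994 and 1.03. The higher gene turned with the length for *Rasgrp1* over *Rasgrp2*, at 2.44 with all exons and 0.485 with the longest coding transcript of the basic set, for *Sla* over *Sla2*, at 0.483 and 1.44, and for *Nck1* over *Nck2*, at 1.47 and 0.976. By the other lengths a member was the highest gene in 13 or 14 of the 16 families.

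**Figure D3:**
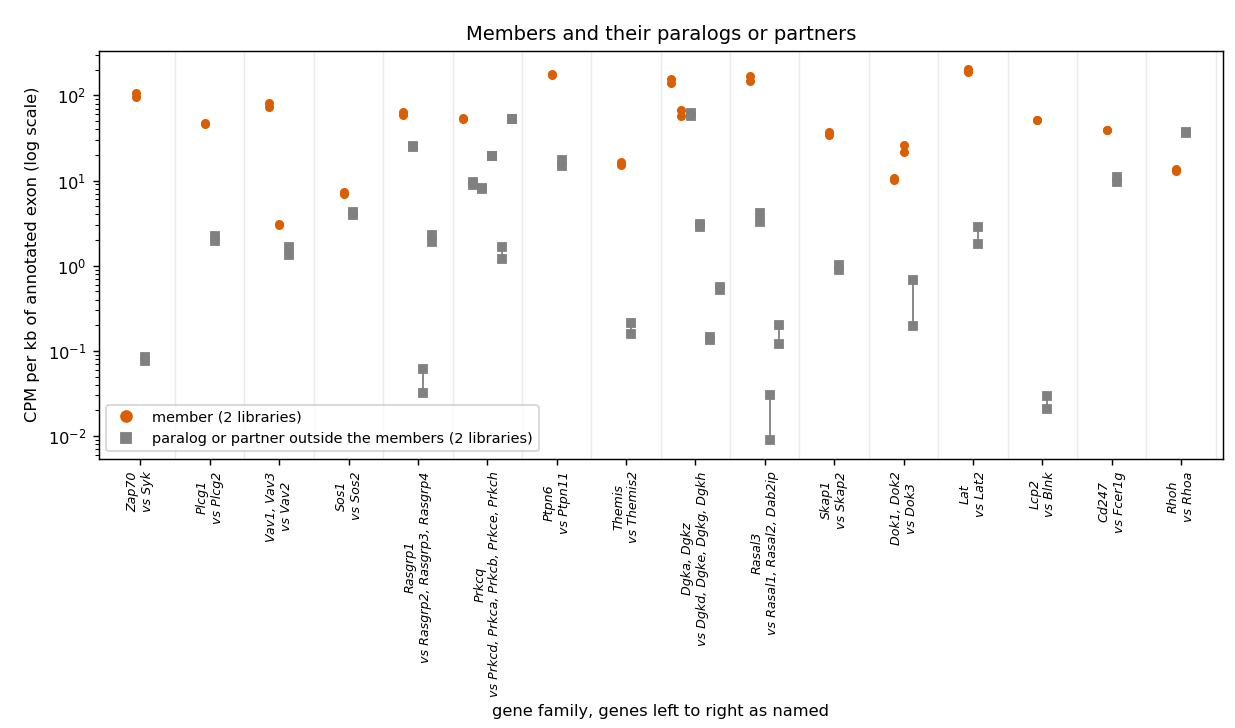
The CPM per kb of annotated exon (y axis, log scale) of members (circles) and of relatives or partners outside them (squares) is plotted by family, with a symbol for each library. The members lie at the top in all families but that of *Rhoh*, and *Prkcq* and *Prkch* lie level.

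The libraries were then compared gene by gene with a two-sided exact binomial test of the counts at the ratio of the library totals, with Benjamini-Hochberg adjustment over the 15949 genes with at least 10 counts. The test covers counting error only and compares these libraries, not conditions. Of the 38 genes, 18 differed at an adjusted p under 0.05, compared with 16.3% of all genes tested and 27.8% of the 7227 genes with at least the 604 counts of the lowest member. Replicate 1 was the higher for 6 of the 38 (15.8%), which is to be read against 2.82% of all genes tested and 4.10% of those as deep as the lowest member. Replicate 2 was the higher for 12 (31.6%), against 13.5% and 23.7%. The 7227 genes were not matched to the 38 in depth, here or below. Their median level was 56.0 and 59.0 CPM, against 221 and 219 CPM for the 38. The test calls smaller differences in genes with more counts, so these shares are not a like comparison. The size of the differences was small: the median absolute log2 ratio was 0.11 for the 38 genes, 0.17 for all genes tested and 0.10 for the 7227 deep genes. None of the 38 lay outside the range of -0.21 to 0.37 that holds the middle 95% of the deep genes.

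The genes higher in replicate 1 were *Cd3e*, *Cd3g*, *Sla2*, *Dgka*, *Cd5* and *Cd6*. The log2 ratio of replicate 2 to replicate 1 was -0.15 for *Cd3e* (95% interval -0.20 to -0.10, adjusted p = 2.62e-07, exact binomial test) and -0.15 for *Cd3g* (-0.19 to -0.11, adjusted p = 9.33e-12, exact binomial test). It was -0.20 for *Cd5*, -0.14 for *Cd6*, -0.14 for *Dgka* and -0.17 for *Sla2*. The call thus covered 2 of the 4 chain genes and 2 of the 3 surface receptor genes. The log2 ratios of the others, which did not pass, were -0.03 (-0.08 to 0.02) for *Cd3d*, 0.01 (-0.06 to 0.07) for *Cd247* and -0.0015 (-0.05 to 0.05) for *Cd2*. *Sla2* shares 731 bases of exon with *Rab5if* on the opposite strand and 20.2% of its windows with other genes. The constant gene of the TCR α chain, *Trac*, had 434 and 400 CPM and was called in the same direction, with a log2 ratio of -0.12, whereas *Trbc1* and *Trbc2*, for the β chain, had log2 ratios of 0.09 and 0.04 and did not pass.

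The genes higher in replicate 2 were *Zap70*, *Txk*, *Lat*, *Grb2*, *Skap1*, *Themis*, *Vav1*, *Rasgrp1*, *Sla*, *Dgkz*, *Rasal3* and *Dok2*. The log2 ratio was 0.16 for *Zap70* (0.10 to 0.22, adjusted p = 1.14e-06, exact binomial test), 0.20 for *Dgkz* (0.15 to 0.25, adjusted p = 1.12e-13, exact binomial test) and 0.16 for *Rasal3*. *Dok2* had the largest ratio of the 38, at 0.28 (0.16 to 0.40, adjusted p = 0.000115, exact binomial test). The other 8 had log2 ratios from 0.10 for *Lat* to 0.18 for *Grb2*. None of the 4 chains of the complex and none of the surface receptor genes was among them. *Rasal3* shares 635 bases of exon with a gene on the opposite strand and 10.5% of its windows.

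**Figure D4:**
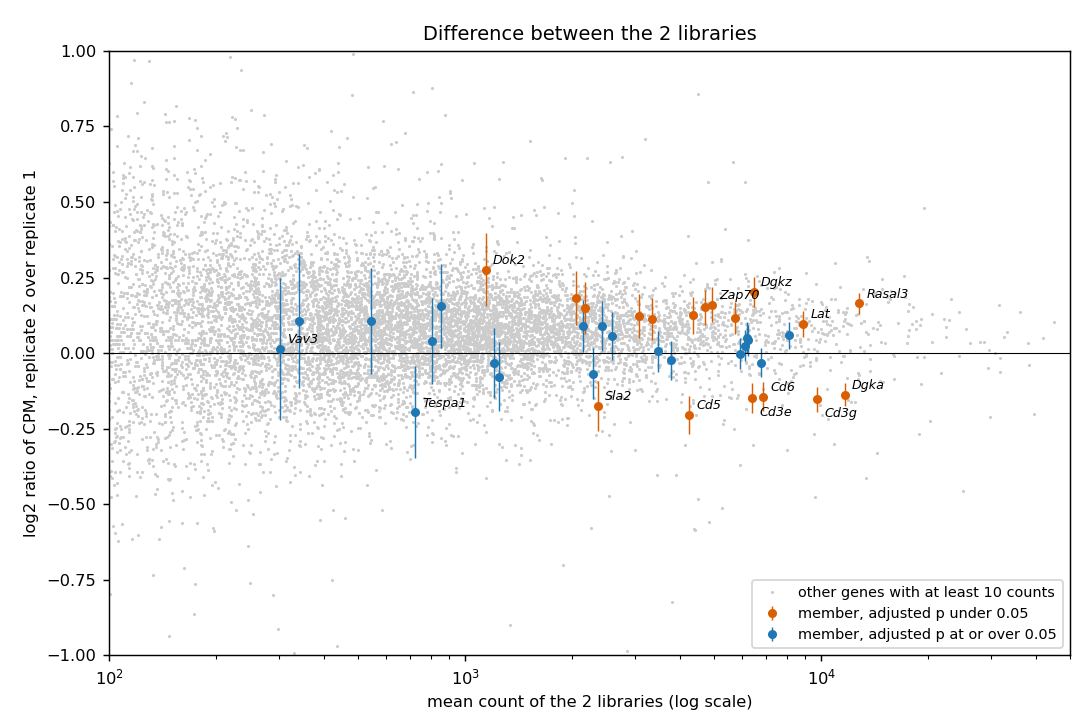
The log2 ratio of CPM in replicate 2 over replicate 1 (y axis) is plotted against the mean count (x axis, log scale) for the 38 genes with 95% counting intervals, orange where the adjusted p was under 0.05, over other genes in grey, with genes outside the axes not drawn. All 38 lie within 0.276 of 0, inside the cloud of other genes of like count.

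The scaling of the libraries decided part of this split. The median log2 ratio of all genes tested was 0.08 with the totals on genes, and *Gm42418* and *Rn18s-rs5*, which lie in the ribosomal RNA repeat, took 13.6% of the counts in replicate 1 and 10.8% in replicate 2. With TMM library sizes, which bring that median to -0.0010, 11 of the 38 were higher in replicate 1 and 4 in replicate 2, against 9.26% and 8.05% of the deep genes. With DESeq2 size factors the split was 9 and 5, against 7.76% and 10% of the deep genes. With totals without mitochondrial and ribosomal RNA genes it was also 9 and 5, against 7.26% and 10.7%. *Cd3d*, at -0.03 with the totals on genes (adjusted p = 0.439, exact binomial test), passed in these 3 settings, with log2 ratios of -0.11, -0.09 and -0.09, so that all of *Cd3d*, *Cd3e* and *Cd3g* were then lower in replicate 2. All 6 genes higher in replicate 1 were called under all 4 scalings, and of those higher in replicate 2 only *Zap70*, *Dgkz*, *Rasal3* and *Dok2* were. For 30 of the 38 genes the direction was the same under the 4 scalings.

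These calls do not pass a stricter reading. No member differed at least 2-fold, which 1.52% of all genes tested did at an adjusted p under 0.05. With a biological coefficient of variation of 0.1, close to the 0.096 that edgeR estimated between the libraries, edgeR's exact test called 0 members, against 0.464% of all genes. At an unadjusted p under 0.05 that test still gave 0 of the 38, compared with 5.17% of all genes, and the smallest unadjusted p of a member was 0.198. The coefficient of 0.1 is close to the spread of the same 2 libraries that the test compares, so it leaves few genes to be called. With the totals on genes, the differences of the 18 genes were beyond counting error and within the spread of this coefficient. Under all 4 scalings, only *Cd3e*, *Cd3g*, *Sla2*, *Dgka*, *Cd5*, *Cd6*, *Zap70*, *Dgkz*, *Rasal3* and *Dok2* differed beyond counting error. Whether the differences of the 18 genes exceed the usual spread between mice cannot be decided from 2 libraries.

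The wider pathway was described with 41 further genes of TCR signalling, of which 40 had at least 10 counts. Of these, 3 were higher in replicate 1 (*Trac*, *Pag1* and *Pik3cd*) and 14 were higher in replicate 2 at an adjusted p under 0.05, against 2.82% and 13.5% of all genes tested and 4.10% and 23.7% of the deep genes. The split moved to 6 and 9 with TMM library sizes and to 6 and 10 with DESeq2 size factors or with totals without mitochondrial and ribosomal RNA genes. Their mean level ran from 0.212 CPM for the adaptor gene *Shb* to 2539 CPM for *Ptprc*, the gene of the phosphatase CD45, with a median of 157 CPM. The proximal kinase genes *Lck* and *Fyn* had 765 and 856 CPM and 415 and 482 CPM, and both passed in the direction of *Zap70*, with log2 ratios of 0.16 and 0.22. *Cd28*, a co-stimulatory receptor gene, had 133 and 171 CPM, a log2 ratio of 0.37, which was larger in size than that of any of the 38 genes.

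In their sums, the markers of other cells were low beside those of T cells. The lists differ in length, and *Nkg7* of the NK list lay above some of the T-cell markers, *Trbc1* and *Trbc2* among them. The 10 T-cell markers, *Cd3e* among them, summed to 4195 and 4276 CPM, and the 2 of CD4 T cells to 16.1 and 19.8 CPM. The 8 markers of double-positive thymocytes summed to 45.7 and 41.9 CPM, the 5 of γδ T cells to 53.9 and 50.9 CPM, and the 3 of iNKT cells to 88.2 and 94.9 CPM. The 7 of B cells summed to 13.8 and 15.5 CPM and the 10 of myeloid and dendritic cells to 25.9 and 25.8 CPM. The 4 erythroid markers summed to 0.478 and 0.616 CPM, with *Hba-a1* and *Hbb-bs* at 0, and the 5 of thymic epithelium summed to 3.71 and 4.19 CPM. The 4 markers of NK cells, the highest of these lists, summed to 462 and 483 CPM, of which *Nkg7*, also expressed by cytotoxic T cells, made up 365 and 391 CPM. *Klrd1* had 71.4 and 58.0 CPM and *Klrb1c* had 22.1 and 27.5 CPM. The killer-cell receptor gene *Ncr1* had 2.69 and 6.89 CPM, a log2 ratio of 1.36 (adjusted p = 0.00862, edgeR's exact test at a coefficient of variation of 0.1). Endothelial and fibroblast markers summed to 77.99 and 69.3 CPM, nearly all from *Pecam1*. The part of these cells in the differences between the libraries was not tested.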

How the data were processed

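The authors made poly(A) libraries, sequenced them as single-end 50-base reads, aligned the reads to mm10 with TopHat2 2.1.1 and counted them with HTSeq 0.6.1, per the labels. The deposited values are raw counts per gene in 2 libraries of 1 group. The gene annotation and strand setting used for counting are not given in the sources used here. Genes took 40.6% and 41.2% of uniquely placed reads, 55.9% in each library lay in no gene, and these lines were left out of totals and tests.

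Levels are CPM of the total on genes, with SD over the 2 libraries, and CPM per kb with lengths from GENCODE M21 (GRCm38, which is mm10). Reads carried no molecular tags, so each Wilson or exact interval, and the 3-count floor, accounts for counting noise alone. The 2 libraries were compared with a two-sided exact binomial test and Benjamini-Hochberg adjustment (scipy 1.17.1, statsmodels 0.14.6), tested on simulated data first. The simulation held counting noise only and gave the test the true totals, so it did not cover extra spread or the choice of scaling. Its changes were also larger than the differences of the members. Alternatives used edgeR 4.0.16 and DESeq2 1.42.0 in R 4.3.3, other lengths and minimum counts, and each library left out. Python 3.11.15 drew the figures with matplotlib 3.10.9. Promoter sequences are from RefSeq (GRCm38.p6).

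The members and lists were chosen with earlier results of these data known. The rule for names was each of the 38 members, the relatives of the families, the pathway and marker lists, and the 3 genes nearest in level to *Cd3e*, *Zap70* and *Lat*. Apart from the 16 families compared, another pair of families was left out, and some listed genes are not reported here. *Xist*, *Ddx3y*, *Gm42418*, *Rn18s-rs5*, *Pou2f1* and *Rab5if* were named outside it, after their values were seen.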

Additional observations from a re-analysis of the deposited data

How the results depend on the processing

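With 2 libraries of 1 group, the tests carry no estimate of the spread between conditions, and depth limited the genes of low count, such as *Vav3*, whose interval of the log2 ratio ran from -0.22 to 0.25. No paired analysis was possible because the series has 1 group, so that the replicate numbers pair nothing. The levels of all 38 genes moved by less than 1 SD under TMM library sizes and DESeq2 size factors, and all 38 moved when mitochondrial and ribosomal RNA genes were left out of the totals, which raised the summed level to 11535 CPM and the median level to 257 CPM by shrinking the totals. With 1 library left out, the summed level ran from 9801 to 9959 CPM, the median level from 219 to 221 CPM, the number of the 703 pairs of members kept in their order per kb from 691 to 698, and the families with a member highest from 14 to 15. Pairs kept in their order numbered 645 with the longest transcript, 573 with the coding length and 620 with the longest coding transcript of the basic set, a length added after seeing the data, as was the comparison with genes as deep as the lowest member. Leaving out genes with shared windows or overlapping exons left 6 families, and a member was highest in each of the 6. The genes left out included *Rhoa*, so the family of *Rhoh*, the exception above, was dropped. *Rasgrp2*, which exceeded *Rasgrp1* by the coding length and the longest coding transcript of the basic set, was also left out. This setting is therefore no check on those families. The number of members that differed between the libraries was 18 and fell to 0 with a 2-fold minimum. It also fell to 0 with edgeR's exact test at a coefficient of variation of 0.1, a value near that estimated from these same libraries.

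The log2 ratio changed sign for genes that had not passed the test. With TMM library sizes it was -0.0708 for *Cd247*, -0.0345 for *Prkcq*, -0.0527 for *Plcg1*, -0.0254 for *Grap2*, -0.0629 for *Vav3*, -0.0360 for *Bcl10*, -0.0191 for *Malt1* and -0.0172 for *Ptpn6*. With DESeq2 size factors it was -0.0556, -0.0193, -0.0375, -0.0101, -0.0477, -0.0208, -0.0039 and -0.0020 for the same genes in that order. Without mitochondrial and ribosomal RNA genes in the totals it was -0.0508 for *Cd247*, -0.0145 for *Prkcq*, -0.0327 for *Plcg1*, -0.0054 for *Grap2*, -0.0429 for *Vav3* and -0.0160 for *Bcl10*. These shifts follow from the change in the totals.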
